A study of Mus musculus with 6 samples.

Results

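The neuregulins and the ErbB receptors were followed in embryonic mammary buds through 8 genes, taken by their identifiers on the array. Ligands were Nrg1 (ENSMUSG00000062991_at), Nrg3 (ENSMUSG00000041014_at), Areg (ENSMUSG00000029378_at) and Hbegf (ENSMUSG00000024486_at). Receptors were Egfr (ENSMUSG00000020122_at), Erbb2 (ENSMUSG00000062312_at), Erbb3 (ENSMUSG00000018166_at) and Erbb4 (ENSMUSG00000062209_at). All 8 had a row among the 25949 probe sets of the deposited table, and no filter on low values was applied.

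The buds came from Eda-/- embryos at E13.5 on a B6CBA background, so that both conditions lacked the endogenous ligand Eda, a member of the Tnf superfamily, and no wild-type buds are part of the comparison. The 3 controls were kept for 4 h without the protein, and the 3 treated samples received recombinant Fc-Eda-A1 protein (hereafter Fc-Eda) for 4 h, at 250 ng/mL per the study's methods. Per the labels each sample pooled about 20 buds of 5 to 6 embryos, whereas the study's methods give 15 to 20 buds and pools of 4 or 5 embryos. Most mesenchyme had been removed by hand, and the buds of an embryo were divided between both conditions. The 6 Affymetrix Mouse Exon 1.0 ST arrays therefore form 3 pairs, numbered by replicate, from 3 litters. The labelled tissue could not be checked here against its marker genes, since names were given for these 8 identifiers only.

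Ligands of the epidermal growth factor family bind ErbB receptors at the cell surface, and the receptors then pair and signal through their kinase domains. Egfr binds Areg and Hbegf, Erbb3 and Erbb4 bind neuregulins, and Erbb4 also binds Hbegf. Erbb2 has no known ligand of its own and serves as the partner of the others, and Erbb3 has little kinase activity and depends on its partner. In the embryo Nrg3 and Erbb4 take part in mammary placode formation, and after birth Areg is the main Egfr ligand of ductal growth. The comparison asks whether transcripts of this system change within hours of Eda signaling, which acts through the transcription factor NF-κB.

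As the upstream sequences of 2 members whose difference had 1 direction in all 3 pairs as deposited, the 250 bases before the annotated start of Areg and of Erbb2 are shown 5′ to 3′, from RefSeq on build GRCm38.p6. That of Areg lies on the plus strand at chr5:91139349-91139598, and that of Erbb2 on the plus strand at chr11:98412234-98412483. Capitals mark matches to the searched motifs.
Areg: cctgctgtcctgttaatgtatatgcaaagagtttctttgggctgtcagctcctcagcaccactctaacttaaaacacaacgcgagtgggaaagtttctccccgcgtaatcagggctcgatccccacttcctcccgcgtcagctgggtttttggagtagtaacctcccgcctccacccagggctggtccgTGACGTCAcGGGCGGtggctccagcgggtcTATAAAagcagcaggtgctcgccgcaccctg
Erbb2: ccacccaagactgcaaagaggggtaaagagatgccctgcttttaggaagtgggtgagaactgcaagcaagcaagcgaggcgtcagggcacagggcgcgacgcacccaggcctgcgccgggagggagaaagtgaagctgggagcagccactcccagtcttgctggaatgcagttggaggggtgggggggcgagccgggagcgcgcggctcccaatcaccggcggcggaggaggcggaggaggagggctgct

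A RefSeq entry was found for 5 of the 8 members, Areg, Egfr, Erbb2, Nrg3 and Erbb4, and the windows of the last pair overlap the annotated gene and are not printed. Both strands were searched for the κB consensus, for the AP-1 motif TGANTCA, for the cyclic AMP response element TGACGTCA, for the box TATAAA and for the box GGGCGG. These were present in 7.25%, 6.75%, 1.55%, 12.4% and 32.7% of all 32851 promoter windows of this length. The Areg window held TGACGTCA beginning 61 bases before the start, GGGCGG beginning 52 bases before it and TATAAA beginning 31 bases before it, without overlap. The Egfr window held GGGCGG on the opposite strand, 9 bases before the start, and the other 3 windows held none of the motifs. A match describes the letters of the window only.

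Among the ligands, the signals of Nrg1, Areg and Hbegf were higher after Fc-Eda treatment than in control medium in each of the 3 pairs, as deposited and under all 3 further normalizations. The signal of Nrg3, the placode factor, was lower in each pair as deposited, with a mean difference of -0.08, but not under the further normalizations. Among the receptors, the signals of Erbb2 and Erbb3 were also lower in each pair as deposited, though not by median centring, and those of Egfr and Erbb4 had no common direction. None of the 8 differences passed the threshold, a q-value of 0.05 in limma with the pairs as a block, in which 0% of all 25949 probe sets passed and the smallest q of any probe set was 0.10. Without adjustment, at p under 0.05 in limma, 1 member (Nrg1) was higher, where 2.73% of all probe sets were, and 0 were lower, against 3.33% of all. That unadjusted count of 1 member fell to 0 without pair 2, where 5.47% of all probe sets passed in either direction, and to 0 with no replicate block, where 4.1% did. It was 5 (3 higher, 2 lower) by IBMT and in limma with trend and robust moderation, where 7.34% and 7.23% of all passed. IBMT is a moderated test whose prior variance follows the signal level. By quantile normalization and by cyclic loess it was 4 (2 higher, 2 lower), where 7.38% and 7.52% passed. The Cyber-T type test gave 3 (2 higher, 1 lower), where 7.34% passed. Median centring (5.93%) and the filter at the median level (10.2% of those tested) gave 3 each, all higher. With the filter at the 25th percentile (7.08%) and without pair 1 (7.4%) it was 2, all higher, and without pair 3 (6.22%) 1. At a q-value of 0.05, IBMT and the regularised test of the Cyber-T type called 0 members as well, with 0.362% and 0.744% of all probe sets called.

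**Figure D1:**
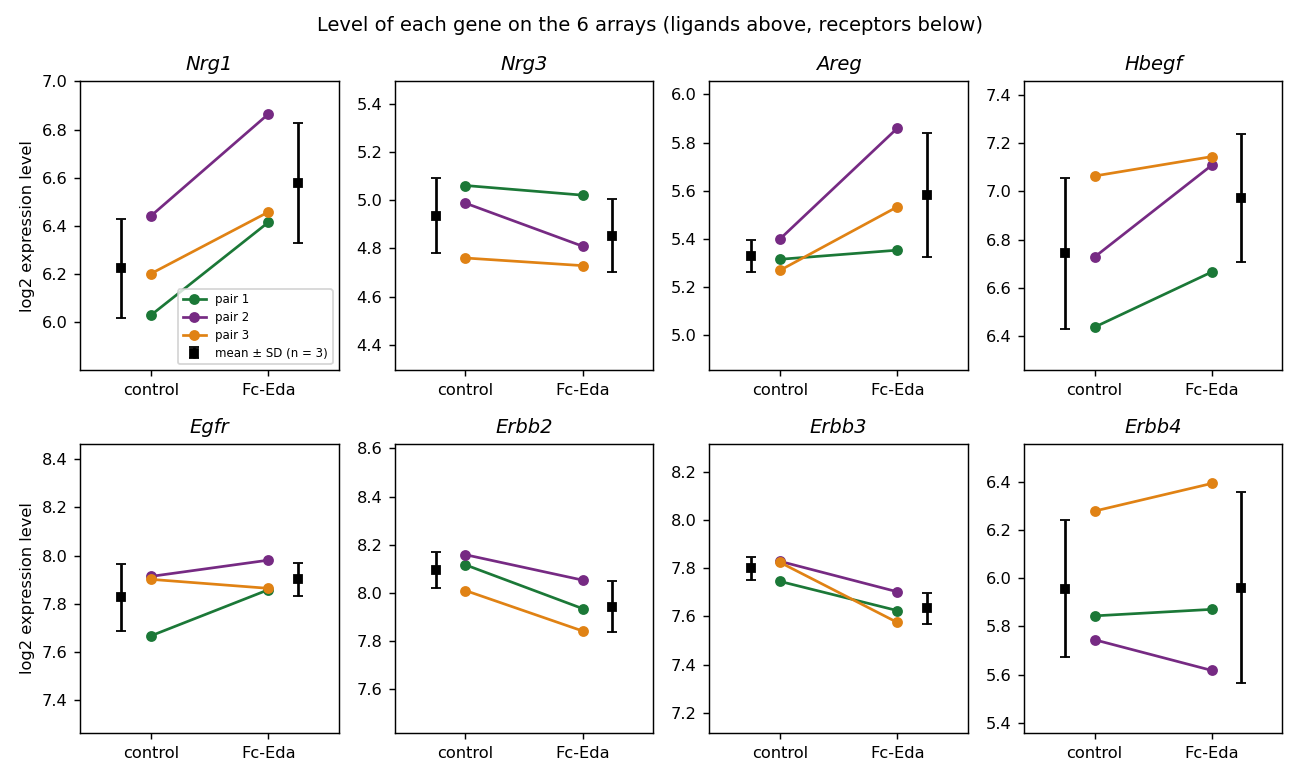
Deposited log2 expression level (vertical axes, each spanning the same number of log2 units) of the 4 ligands (above) and the 4 receptors (below) for control and Fc-Eda arrays. Coloured lines join the 2 arrays of a pair, and black squares with bars are the mean ± SD of 3 arrays. The lines of Nrg1, Areg and Hbegf all slope upward, and for Erbb4 both arrays of pair 3 lie above the other 4.

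Nrg1, a neuregulin that binds Erbb3 and Erbb4, had log2 levels of 6.03, 6.44 and 6.20 in control replicates 1, 2 and 3 and of 6.42, 6.86 and 6.46 after Fc-Eda treatment. Every treated array lay above its own control, but the groups overlapped, since the control of pair 2 was above the treated array of pair 1. The mean was 6.22 ± 0.21 (SD, n = 3) in control and 6.58 ± 0.25 after treatment. The difference was 0.39, 0.42 and 0.26 in the 3 pairs, 0.35 ± 0.08 (SE) on average, with q = 0.470 and an unadjusted p of 0.00784 in limma. Without pair 2 (q = 0.919) and with no replicate block (q = 0.962), the unadjusted p in limma was above 0.05 as well. Its 95% interval ran from 0.14 to 0.57 on the log2 scale, or from 1.10-fold to 1.48-fold around a mean of 1.28-fold. By size it ranked 1046th among the 25949 differences. In such pools, more RNA per cell and more cells of a kind cannot be told apart, here and for the other members.

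Nrg3 was at 5.06, 4.99 and 4.76 in control buds and at 5.02, 4.81 and 4.73 after Fc-Eda treatment, a mean of 4.94 ± 0.16 and of 4.85 ± 0.15 (SD, n = 3 each). Pair 3 was the lowest in both conditions. Over the 6 arrays the mean level of Nrg3 was at percentile 50.9 of all probe sets, the lowest of the 8 members. Those of the others ran from 60.2 (Areg) to 94.1 (Erbb2). The pair differences were -0.04, -0.18 and -0.03, and their mean of -0.08 had a 95% interval from -0.30 to 0.13 (q = 0.757 in limma). The mean was -0.04 without pair 2, and -0.04 by quantile normalization, -0.03 by cyclic loess and -0.03 by median centring. The fit on the deposited values left room for a level between 0.81-fold and 1.09-fold of control. As deposited all 3 differences were negative, whereas in pair 1 the sign turned under every other normalization, to 0.13 by quantile normalization, 0.12 by cyclic loess and 0.14 by median centring, in which the median of every array is set equal.

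Areg encodes amphiregulin. It was at 5.32, 5.40 and 5.27 in control buds, the narrowest spread of the ligands (SD 0.07), and at 5.35, 5.86 and 5.53 after Fc-Eda treatment (SD 0.26, n = 3 each). The treated arrays were thus farther apart than the controls, and the groups overlapped through pair 1. The difference was 0.04 in pair 1, 0.46 in pair 2 and 0.26 in pair 3, and that of pair 1 was 0.14 by quantile normalization, 0.10 by cyclic loess and 0.22 by median centring. The mean of 0.25 had a 95% interval from -0.02 to 0.53 (q = 0.730 in limma), and it was 0.15 without pair 2 and 0.36 without pair 1.

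Hbegf, the heparin-binding member of the family, was at 6.44, 6.73 and 7.06 in control buds and at 6.67, 7.11 and 7.14 after Fc-Eda treatment. Its control arrays spanned 0.63 on the log2 scale, the widest range of the 8 genes in control buds and more than the mean difference of 0.23. The pair differences were 0.23, 0.38 and 0.08, with a 95% interval of the mean from -0.01 to 0.47 (q = 0.721 in limma). Without pair 2 the mean was 0.15. Pair 1 was the lowest in both conditions.

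**Figure D2:**
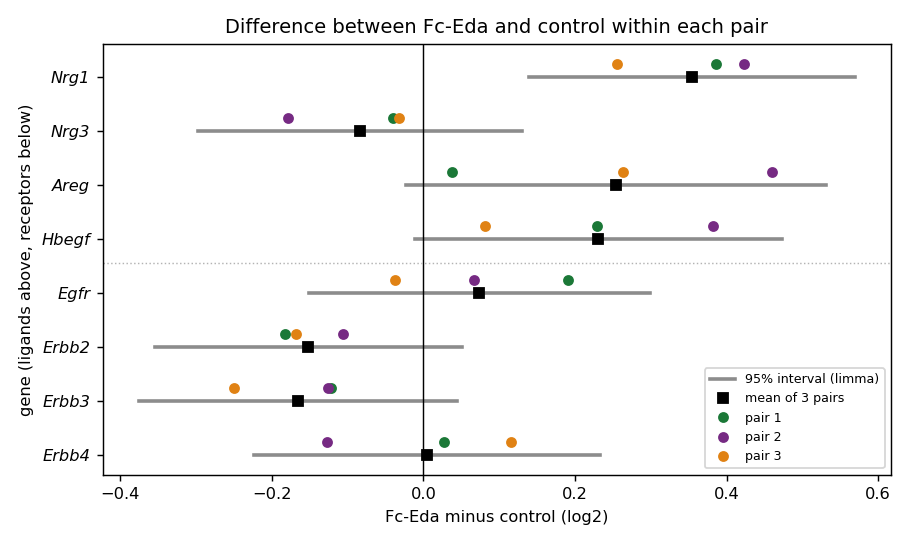
Difference between Fc-Eda and control on the log2 scale (horizontal axis) for each gene (vertical axis), on the deposited values. Coloured points are the 3 pairs, black squares their mean and grey bars the 95% interval from limma. The interval of Nrg1 lies above 0, from 0.14 to 0.57, and those of the other 7 genes include 0.

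Egfr, the receptor of Areg and Hbegf, was at 7.67, 7.91 and 7.90 in control buds and at 7.86, 7.98 and 7.86 after Fc-Eda treatment. The groups overlapped, and the control of pair 1 was the lowest of the 6 arrays. The pair differences were 0.19, 0.07 and -0.04, and their mean of 0.07 had a 95% interval from -0.15 to 0.30 (q = 0.766 in limma). The mean moved in both directions, to 0.02 without pair 1 and by quantile normalization, 0.03 by cyclic loess, and 0.13 without pair 3 and by median centring.

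Erbb2, the shared partner receptor, was at 8.12, 8.16 and 8.01 in control buds and at 7.93, 8.05 and 7.84 after Fc-Eda treatment. Each treated array was below its own control, by 0.18, 0.11 and 0.17, and the groups overlapped through pairs 2 and 3 as deposited. They overlapped by median centring too, but not by quantile normalization or cyclic loess, where 4.82% and 4.61% of all probe sets did not overlap with lower values after treatment. The mean difference was -0.15 with a 95% interval from -0.35 to 0.05 (q = 0.751 in limma), that is 0.90-fold of control with bounds of 0.78-fold and 1.04-fold. The mean was -0.21 by quantile normalization, -0.20 by cyclic loess and -0.10 by median centring.

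Erbb3, the receptor that relies on the kinase of its partner, was at 7.75, 7.83 and 7.82 in control buds and at 7.62, 7.70 and 7.57 after Fc-Eda treatment. It was the single member whose groups did not overlap as deposited. They did not overlap by quantile normalization or cyclic loess either, with a mean of -0.21 by each. They did overlap by median centring, by which the mean was -0.11. Over all probe sets as deposited, 5.11% did not overlap with lower values after treatment and 3.98% with higher values. The share with lower values was 4.82% by quantile normalization, 4.61% by cyclic loess and 3.36% by median centring. The pair differences were -0.12, -0.13 and -0.25, with a mean of -0.17 and a 95% interval from -0.38 to 0.04 (q = 0.749 in limma).

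Erbb4, the receptor for neuregulins that acts with Nrg3 at the placode, was at 5.84, 5.74 and 6.28 in control buds and at 5.87, 5.62 and 6.39 after Fc-Eda treatment. Both arrays of pair 3 were above the other 4, so that its level differed more between pairs than between conditions. The pair differences were 0.03, -0.13 and 0.11. Their mean of 0.0048 had a 95% interval from -0.22 to 0.23 (q = 0.850 in limma), and its sign turned with quantile normalization and cyclic loess.

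Of the 8 members, 3 were higher in all pairs (Nrg1, Areg and Hbegf), where 13.2% of all probe sets were, and 3 were lower (Nrg3, Erbb2 and Erbb3), where 15.3% of all were. The count of higher members was 3 under each normalization, with 14.7% of all probe sets by quantile normalization, 15.1% by cyclic loess and 17% by median centring. The count of lower members was 2 by quantile normalization and by cyclic loess, without Nrg3, where 14.7% and 14.5% of all probe sets were lower, and 0 by median centring, where 9.54% of all were. Median centring put Erbb2 at 0.0025 and Erbb3 at 0.06 in pair 1. The control array of that pair had a median of 4.99 over all probe sets, where the other 5 lay between 4.80 and 4.83, and its part in these signs was not tested beyond the fits without pair 1. Without pair 1 the mean difference was 0.34 for Nrg1, -0.14 for Erbb2 and -0.19 for Erbb3.

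**Figure D3:**
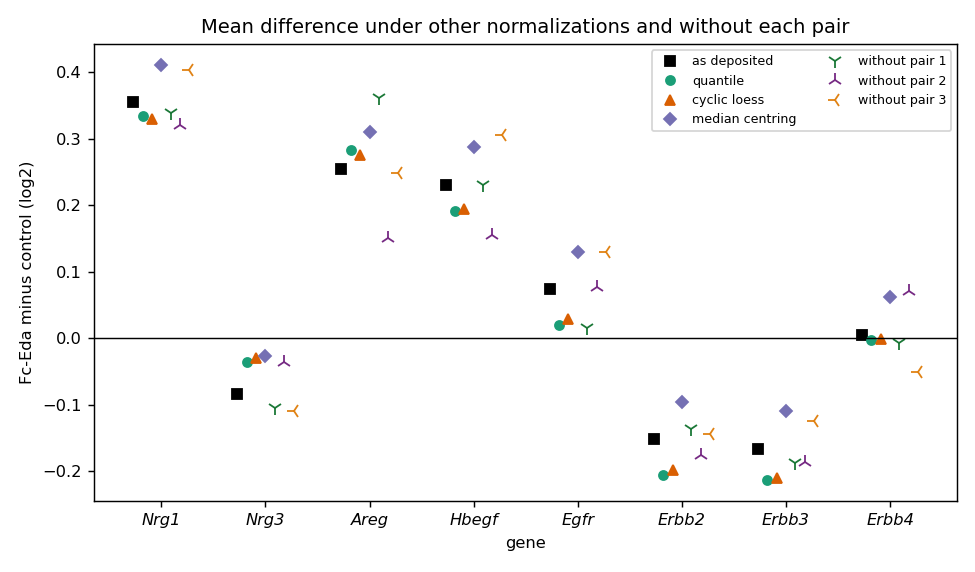
Mean difference between Fc-Eda and control on the log2 scale (vertical axis) for each gene (horizontal axis), as deposited, under 3 other normalizations and without each pair. Nrg1 stays between 0.32 and 0.41, and Erbb4 lies on either side of 0.

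The median difference was 0.24 over the 4 ligands and -0.07 over the 4 receptors, beside -0.02 over all probe sets. By quantile normalization, cyclic loess and median centring the ligand median was 0.24, 0.23 and 0.30, the receptor median -0.10, -0.10 and -0.02, and the median over all probe sets -0.0015, -1.1e-05 and 0.03. Pair by pair, Nrg1 exceeded Nrg3 in its difference by 0.43, 0.60 and 0.29, a mean of 0.44 ± 0.16 (SD, n = 3 pairs). Egfr exceeded Erbb3 by 0.31, 0.19 and 0.21, a mean of 0.24 ± 0.06 (SD, n = 3 pairs). These are 2 of the 12 comparisons made between ligands and between receptors, and they were picked after their values were seen. Of the 12, 6 had the same sign in all pairs. Those 6 share genes, since each but Nrg1 against Hbegf involves Nrg3 or Egfr. No such share was computed for other genes, so the 6 are not read as an excess of differences. The two-sided exact permutation test by sign changes cannot go below p = 0.25 with 3 pairs, so it could call no such difference whatever its size, and the 12 comparisons are given as values with no call.

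**Figure D4:**
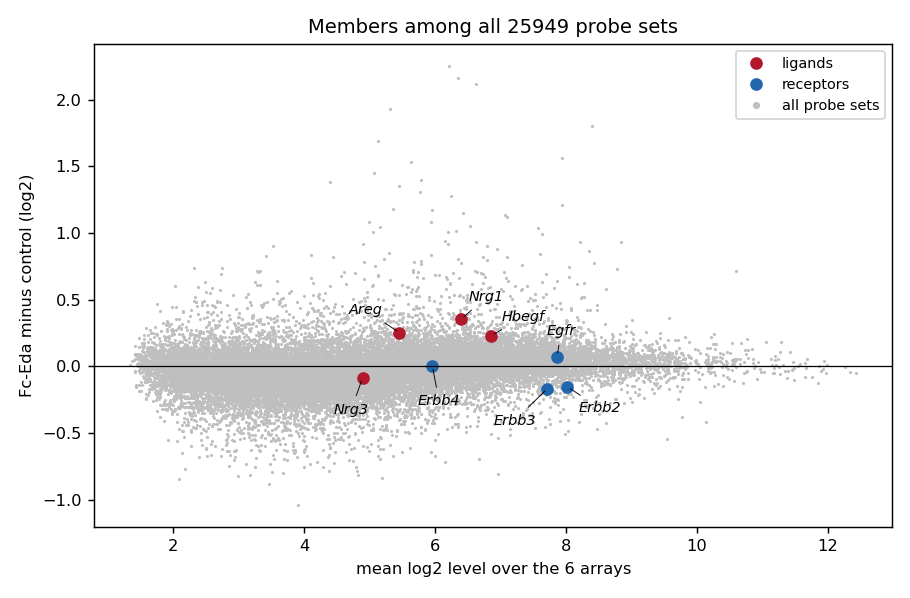
Mean difference between Fc-Eda and control (vertical axis, log2) against the mean log2 level over the 6 arrays (horizontal axis) for all 25949 probe sets in grey, the ligands in red and the receptors in blue. Nrg1 is the highest of the members at 0.35, which ranks 1046th by size among all probe sets.

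Across the 6 arrays, of which the 2 of a pair share a litter and the 3 of a group a treatment, the profile most like that of Nrg1 among the members was Areg, with a Pearson correlation of 0.90 (Spearman 0.94). Erbb2 and Erbb3 were most like each other, with 0.82 (Spearman 0.83). Nrg3 was most like Erbb2, with 0.54, and least like Hbegf, with -0.97. The arrays of pair 1 were the highest for Nrg3 and the lowest for Hbegf in both conditions, and those of pair 3 the lowest for Nrg3 and the highest for Hbegf. These values describe 6 arrays that are not independent. The range over the control arrays was larger than the size of the mean difference for Nrg1, Nrg3, Hbegf, Egfr and Erbb4. It was smaller for Areg, Erbb2 and Erbb3. That range includes differences between litters, which the pair differences leave out. The share of all probe sets with a larger range was not computed, so nothing particular to these genes is read from it.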

How the data were processed

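The authors deposited log2 values of 25949 probe sets on each array, each probe set under an Ensembl mouse gene identifier. The submitters' processing notes name RMA. Its version, the probe set definition and the genome build are not given in the sources used here, and no detection call was used. The reference table pairs 0 of the identifiers with a name, so the pathway and cell marker lists drawn up for this work were not analysed. The 8 members, their names and these lists were chosen with earlier results of these data known.

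All probe sets were fitted in limma 3.58.1 (R 4.3.3) with treatment and replicate number as terms, the pairing of the study's methods, since the embryos of a pair are shared. Deviations from the condition means correlated within pairs with r = 0.079, 0.29 and 0.29. Storey's q-values were written out with a spline of 3 degrees of freedom, with a threshold of 0.05. IBMT (loess span 0.75) and a Cyber-T type test (window 101, prior weight 10) were written out too and are not the authors' programs. The code was tested on simulated data. Replicates were taken from the labels, and the 6 arrays limit the precision. Alternatives were those named in the closing section. The 8 members were named by rule, and upstream windows come from RefSeq by symbol.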

Additional observations from a re-analysis of the deposited data

How the results depend on the processing

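The count of members called was 0 with limma and stayed at 0 in all other settings but one: with no replicate block, with Benjamini-Hochberg adjustment, trend and robust moderation, IBMT, the Cyber-T type test, quantile normalization, cyclic loess, median centring, filters at the median level and at the 25th percentile of level, without each pair in turn, and under the rule of 1 of 3 tests on deposited or loess values, chosen after seeing the data. In these settings between 0 and 247 of all probe sets were called, at most 0.952%. There were 96 by trend and robust moderation, 57 by median centring and 91 of the 12974 above the median level. No probe set at all was called in limma as first fitted, with Benjamini-Hochberg adjustment, or by quantile normalization or cyclic loess. The same held with the filter at the 25th percentile and without pair 1. In those settings the count of 0 says nothing of the members. A plain paired t-test without adjustment called 2 members, Nrg1 with a difference of 0.35 and Erbb2 with one of -0.15, where it called 1498 of all probe sets, or 5.77%, and after Benjamini-Hochberg adjustment it called 0 members and 1 probe set. This test has no moderation of the variance and is not one of the 3 tests of the study's methods. Over all settings for the same genes the smallest other q was 0.0671 for Nrg1 (rule of 1 of 3 tests after cyclic loess) and 0.289 for Erbb2.

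Erbb4 changed sign, to -0.0027 by quantile normalization, -0.0015 by cyclic loess (alone or with the rule of 1 of 3 tests) and between -0.050 and 0.071 with single pairs left out, with -0.0063 without pair 1. The cause was not tested. The other 7 members kept the direction of their mean difference in all 17 settings, most of which reuse the deposited difference. Nrg1 ranged from 0.32 to 0.41, Nrg3 from -0.11 to -0.03, Areg from 0.15 to 0.36, Hbegf from 0.15 to 0.31, Egfr from 0.02 to 0.13, Erbb2 from -0.21 to -0.10 and Erbb3 from -0.21 to -0.11. Without adjustment, 1 member had p under 0.05 in limma (6.06% of all probe sets). In the other planned settings 0 to 5 did (4.1% to 10.2%), with 0 without pair 2 and with no replicate block. How far each signal lay above background could not be judged from the values used here.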
